A study of Mus musculus with 53 samples.

Results

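Dorsal skin and bladder of wildtype CB6 mouse embryos were compared at embryonic day 14.5 (E14.5), an age at which the epidermis is beginning to stratify and smooth muscle is forming around the bladder. The comparison used 3 skin arrays and 2 bladder arrays, 5 of the 26 arrays in the table of the older 3' type and of 53 arrays in the series, with all 18194 genes that could be named on that array. Total RNA came from homogenized tissue, so epithelium, mesenchyme, muscle, vessels and nerves of each organ were measured together. Per the series text, the bladder arrays were made for an earlier study of the same laboratory. The 3 skin and 3 bladder arrays of wildtype CB6 embryos at E16.5 served as a second age. Litters, sex and the number of embryos behind each sample are not stated in the sources used here. The p-values therefore reflect variation among arrays alone, part of which may be technical. That variation was taken over all 26 arrays of the table, which include other organs and E18.5 bladder of Get1 +/- mice.

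The epidermis arises from surface ectoderm under the transcription factor p63, switches from Krt8 and Krt18 to Krt5 and Krt14, and begins to express Krt1 and Krt10 in its suprabasal layer while a transient periderm covers it. Hair placodes form in the same sheet through Wnt, Eda and Fgf signals, with Shh and Bmp signals following. The bladder epithelium, or urothelium, is endodermal. It makes uroplakins and secretes Shh, to which the surrounding mesenchyme responds as it differentiates into smooth muscle. Myocardin, the product of Myocd, is the coactivator with which serum response factor drives smooth muscle genes through a sequence called the CArG box.

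Values below are log2(intensity + 16) after quantile normalization, on which an intensity of 0 is 4.00, and differences are skin minus bladder on that scale. Dim genes' fold changes are understated by the added 16. Each gene was read from its brightest probe set, and levels of different genes were not compared. A gene was called when its adjusted p in limma (Benjamini-Hochberg) was below 0.05, with at least a 2-fold difference, and a difference of at least 2-fold in the same direction between skin replicate 3 alone and the bladder mean. In whole tissue, fewer cells of a type and less RNA per cell cannot be told apart.

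The last condition was set because the 3 skin arrays were not alike. The titles of skin replicates 1 and 2 share an identifier that replicate 3 does not have. Among genes with a mean above 9 in both, replicates 1 and 2 differed with an SD of 0.12, the smallest of the 25 pairs of arrays within groups, of which the next had 0.151. Over all genes their SD was 0.372, which ranked 5 of the 25, the smallest being 0.309 in a pair of E16.5 skin arrays. Replicates 1 and 2 may be one sample, which was not tested. The same arrays carried liver-type transcripts that replicate 3 lacked: albumin (Alb) read 11.43, 11.31 and 4.67 in skin and 6.30 and 5.33 in bladder. The summed intensity of the 42 measured genes of a hepatocyte list was 15.89, 15.82 and 9.67 (log2) in skin and 9.34 and 9.31 in bladder. Xist, the RNA of the inactive X chromosome, read 11.15, 11.26 and 4.92 in skin and 6.33 and 5.55 in bladder, whereas the Y-linked Eif2s3y read 7.05, 7.16 and 9.70 in skin and 9.65 and 9.59 in bladder. Over all genes, 175 differed by more than 2 log2 units between the mean of replicates 1 and 2 and replicate 3, and 165 of these were lower in replicate 3.

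**Figure D1:**
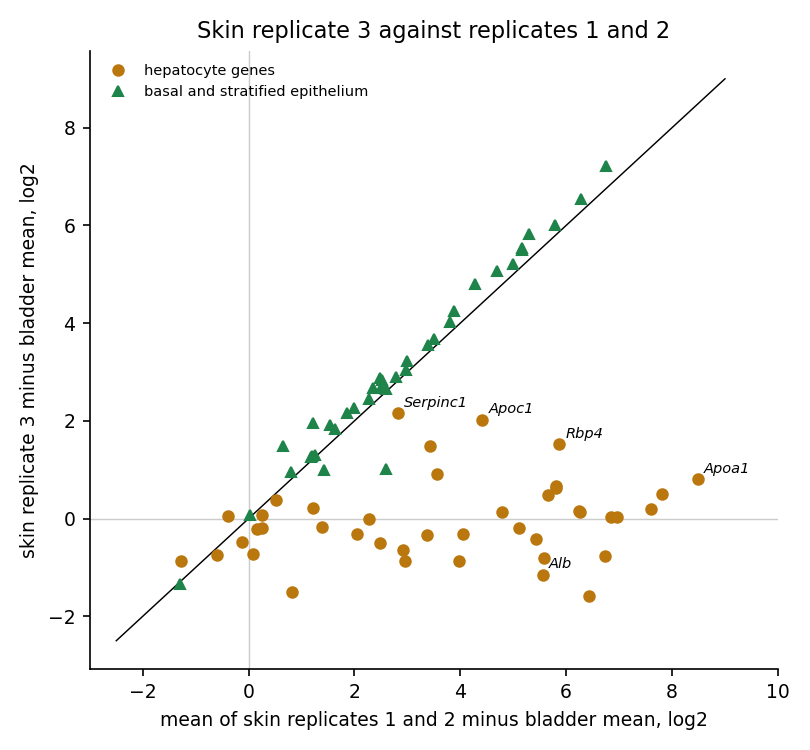
Each point is a gene, with the mean of skin replicates 1 and 2 minus the bladder mean on the horizontal axis and skin replicate 3 minus the bladder mean on the vertical axis (both log2); the line marks equal differences. Most genes of the basal and stratified epithelium lie near the line. Hepatocyte genes spread to the right, with a median vertical value of -0.09 and Alb below 0.

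Of the 18194 genes, 1254 were called higher in skin (6.89%) and 964 lower (5.30%). Without the condition on replicate 3 the calls were 1476 higher (8.11%) and 1092 lower (6.00%), so it took out 222 higher and 128 lower calls. The median difference over all genes was 0.053. Of the 2218 called genes, 2211 (99.7%) had skin and bladder arrays that did not overlap. A lack of overlap given for a called gene below therefore adds little to its call. On the values as deposited, without quantile normalization, 1055 genes were called higher and 1206 lower, and the share of calls that were higher went from 56.5% to 46.7%. With replicate 3 as the only skin array there were 1175 higher and 1003 lower calls, the lone array being assumed to vary like the other groups.

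Some calls named below depended on these choices. With replicate 3 as the only skin array the calls of Asprv1, Col14a1, Cyp26a1, Grik1, Hoxa9, Hoxb5, Hoxc6, Hoxd3, Krt5, Pla2g12b, Pparg, Prox1, Rbp4, Serpinc1, Shh, Trp63, Upk2, Vtn and Wnt7b were lost. With the mean of all probe sets of a gene in place of the brightest, those of Axin2, Bmp7, Col14a1, Disp1, Ehf, Erbb3, Fbln5, Fgfr4, Flt4, Hapln1, Hhip, Hoxa9, Hoxb4, Prox1, Rspo2, Tnnt2, Trp63 and Wnt7b were lost. The second brightest probe set differed little for Hoxd13 (-0.33), Edar (0.01), Axin2 (0.04), Erbb3 (0.01), Fgfr4 (0.01), Hoxb4 (0.11), Sim1 (0.05), Dsc3 (0.45) and Foxf1 (-0.54). It was also under the fold limit for Sfrp5 (0.51), Klf5 (0.52), Fzd10 (0.58), Tbx15 (0.62), Dkk1 (0.65), Trp63 (0.68), Clca1 (-0.71) and Pla2g2f (0.87), among others. The differences given below for these genes are those of the brightest probe set. At a pseudocount of 1 Hoxa9, Hoxd1, Hoxd3, Krt5, Shh, Trp63, Wnt10a and Wnt7b lost their calls, and on the values as deposited Col14a1, Disp1, Hoxb5, Hoxd1, Pla2g12b, Shh, Wnt7b and Zim1 did. With only the 5 arrays compared in the fit, Hoxb5, Hoxd1, Pla2g12b, Rbp4, Wnt3a and Zim1 did.

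**Figure D2:**
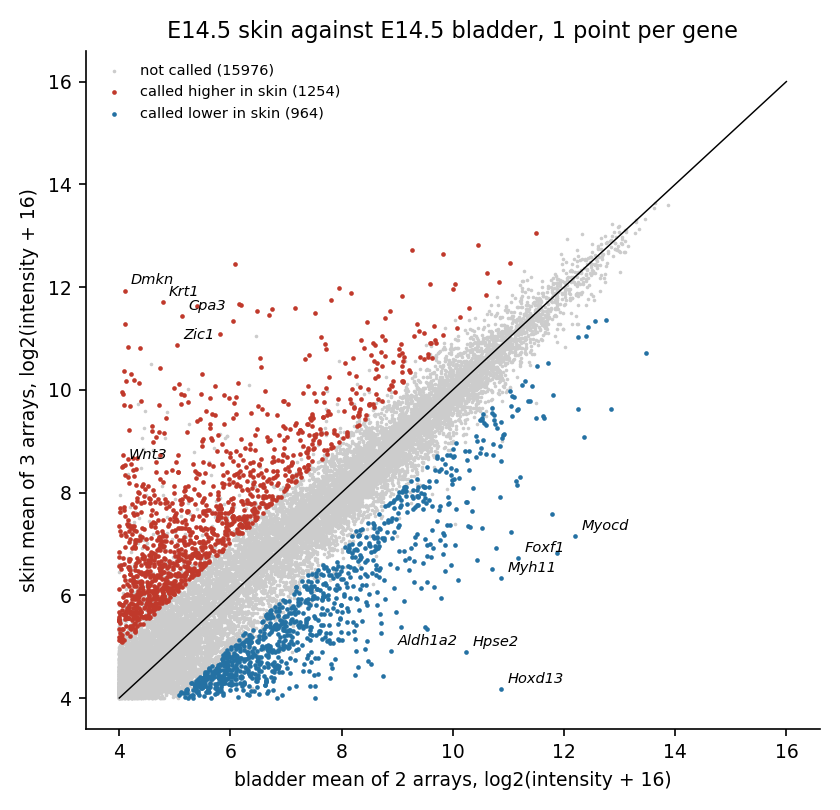
Each point is 1 of 18194 genes, with the mean of 2 bladder arrays on the horizontal axis and of 3 skin arrays on the vertical axis, both as normalized log2(intensity + 16). The 1254 genes called higher in skin (red) lie above the line of equality and the 964 called lower (blue) below it.

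The genes with the largest excess in skin were mainly products of the differentiating epidermis. Dmkn, which encodes the secreted epidermal protein dermokine, read 11.87, 11.77 and 12.16 in skin and 4.14 and 4.06 in bladder, a difference of 7.83 ± 1.07 (SE; adjusted p in limma 1.37e-05). Every skin array was thus far above both bladder arrays. Krt1, a keratin of suprabasal cells, differed by 6.92, Krtdap, a keratinocyte differentiation gene, by 6.36, Gjb2, which encodes the gap junction protein connexin 26, by 6.45, and Krt77, another keratin of suprabasal epidermis, by 5.87. The protease gene Asprv1 (5.93), the phospholipase gene Pla2g2f (5.91), the thioesterase gene Them5 (6.29), the oxidase gene Aox4 (6.05), Sdr16c6 (6.09), Stfa3 (6.25) and 2310011E23Rik (6.67) were of the same order. The remaining genes among the 15 largest were Cpa3, a mast cell protease, and Zic1, a transcription factor of dorsal mesoderm, described with their lists, and Pla2g12b. Pla2g12b read 14.33, 14.33 and 5.19 in skin and 4.09 and 4.12 in bladder, so its difference of 7.18 rested on replicates 1 and 2; with replicate 3 as the only skin array the difference was 1.09 (adjusted p in limma 0.141). For Asprv1 that adjusted p was 0.0517.

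The 15 largest deficits in skin were led by Hoxd13, a posterior Hox gene of cloacal and limb mesenchyme, at 4.00, 4.18 and 4.34 in skin and 11.17 and 10.58 in bladder, a difference of -6.70 ± 0.21 (SE; adjusted p in limma 1.2e-14). Hpse2, a heparanase family gene whose human form is mutated in a congenital bladder disease, read 4.68, 5.19 and 4.78 in skin and 10.14 and 10.34 in bladder. In both genes the skin arrays lay near the bottom of the scale. Smooth muscle genes took 5 of the other places (Myocd, Myh11, Actg2, Myl9 and Cnn1). The rest were the mesenchymal transcription factors Foxf1 (-4.45) and Tcf21 (-4.11), the matrix Gla protein gene Mgp (-4.19), the retinaldehyde dehydrogenase gene Aldh1a2 (-3.98), Clca1 (-3.87), C130026I21Rik (-5.05), the synaptic gene Rims1 (-4.20) and the glutamate receptor gene Grik1 (-4.31). Grik1 lost its call without bladder replicate 2 (adjusted p in limma 0.0668).

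Of 36 measured genes of the basal and stratified epithelium, 28 were called higher in skin (77.8%, against 6.89% of all genes) and 1 lower, with a median difference of 2.61. Krt14, the basal keratin, read 10.98, 10.97 and 11.29 in skin and 6.12 and 5.49 in bladder, a difference of 5.28 ± 0.90 (SE; adjusted p in limma 0.000164). Krt10, which replaces it above the basal layer, read 11.48, 11.47 and 12.01 in skin and 6.25 and 6.11 in bladder, and Krt1 read 11.49, 11.60 and 12.01 in skin and 5.29 and 4.27 in bladder. All 3 were high on every skin array, replicate 3 included, where each was highest. The junction genes Pkp1 (plakophilin 1, 5.29) and Dsc3 (desmocollin 3, 4.81) belong to the desmosomes of stratified cells. Bladder was not without such transcripts. Trp63, which encodes p63, read 11.28, 11.31 and 11.62 in skin and 9.17 and 8.39 in bladder, a difference of 2.62 ± 0.77 (SE; adjusted p in limma 0.016), and Krt5 read 11.57, 11.29 and 11.96 in skin and 7.76 and 6.55 in bladder, a difference of 4.45 ± 1.42 (adjusted p in limma 0.0251). The spread used for these genes came from all 9 groups of the table, and both calls were lost on leaving out bladder replicate 2, with adjusted p in limma of 0.147 for Trp63 and 0.179 for Krt5. Krt5 also lost its call without bladder replicate 1 (0.0624), skin replicate 1 (0.053) or skin replicate 3 (0.0597), while its difference stayed between 3.84 and 5.05. The 1 member called lower was Bnc2 (basonuclin 2, -1.32), which is also expressed in mesenchyme.

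Genes of the periderm and of the later cornified layer were split. Of 28 measured, 15 were called higher (53.6%, against 6.89% of all genes), with a median of 2.11. Hrnr (hornerin, 5.62), Lor (loricrin, 5.51) and Sprr1b (4.25) encode proteins of the cornified envelope, and Lor read 11.48, 11.55 and 11.97 in skin and 6.77 and 5.54 in bladder. Elovl4 (3.73) elongates the fatty acids of barrier lipids and Ppl (periplakin, 3.70) is a cornified envelope linker. The list also held genes that showed no such difference, among them Flg (0.33) and Abca12 (0.17), whose products serve the late barrier. Leaving out bladder replicate 2 lowered the count from 15 to 8, and using replicate 3 as the only skin array lowered it to 9.

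Genes of simple epithelia and junctions that both organs use differed less: 7 of 27 were called higher (25.9%, against 6.89% of all genes) and 1 lower, with a median of 0.82. Cdh1, which encodes E-cadherin, read 10.99, 11.03 and 11.09 in skin and 9.28 and 9.34 in bladder, a difference of 1.73 ± 0.18 (SE; adjusted p in limma 6.93e-07). Rab25 (2.76), Cldn1 (2.40) and Klf5 (2.38), which act in epithelial trafficking, tight junctions and transcription, were also higher. The Ets factor gene Ehf was lower (-2.56). Krt8 read 11.05, 10.97 and 8.96 in skin and 9.55 and 9.70 in bladder and Krt18 read 11.04, 10.97 and 8.43 in skin and 9.68 and 9.37 in bladder, so these keratins of simple epithelium were above bladder in skin replicates 1 and 2 and below it in replicate 3, and neither was called. Without skin replicate 3, and so without the condition on it, both were called higher (1.39 and 1.49), and 11 members of the list were in place of 7. With all arrays but without that condition 8 were.

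Uroplakins plate the luminal face of the urothelium. Of 19 measured urothelial genes, 5 were called lower in skin (26.3%, against 5.30% of all genes) and 1 higher. The list as a whole was not lower, with 12 positive and 7 negative differences. Its median was 0.555 over the 3 skin arrays and -0.155 in replicate 3 alone. With only genes above the table median the 5 lower calls became 3. Upk3a read 4.31, 4.17 and 4.00 in skin and 6.42 and 6.02 in bladder, a difference of -2.06 ± 0.21 (SE; adjusted p in limma 5.04e-07), Upk1a read 4.09, 4.57 and 4.36 in skin and 5.81 and 6.19 in bladder, and Upk2 read 5.26, 4.31 and 4.41 in skin and 7.12 and 7.52 in bladder. For these genes every skin array was below both bladder arrays. Upk1b, in contrast, read 10.12, 10.11 and 10.47 in skin and 9.66 and 10.13 in bladder, with overlapping arrays and a difference of 0.34 ± 0.34 (SE; adjusted p in limma 0.528). The transcription factor gene Foxa1, which acts in endodermal epithelium, read 4.66, 4.69 and 4.81 in skin and 8.79 and 8.16 in bladder, and Tbx3, a T-box gene active in the bladder's mesenchyme and epithelium, read 7.31, 7.24 and 7.45 in skin and 10.46 and 10.17 in bladder. Pparg was the member called higher (1.34), a call lost without bladder replicate 1 (adjusted p in limma 0.273). Upk2 lost its call without bladder replicate 2 (0.0765).

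**Figure D3:**
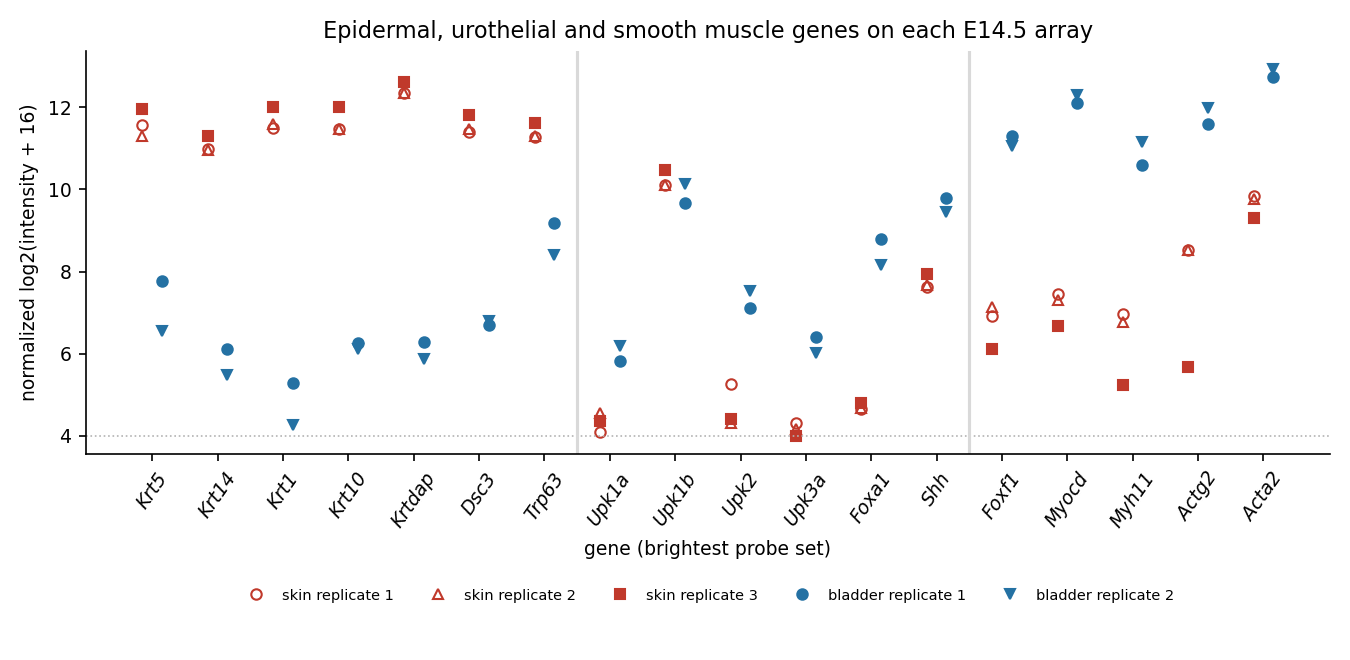
Normalized log2(intensity + 16) of 18 genes on each of the 3 skin arrays (red; replicate 3 filled) and 2 bladder arrays (blue), with the dotted line at an intensity of 0. Epidermal genes (left) are high on every skin array, uroplakins other than Upk1b, with Foxa1 and Shh (middle), and smooth muscle genes with Foxf1 (right) are higher on both bladder arrays than on any skin array, and skin replicate 3 is lowest for each of the 5 genes on the right.

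Hair placode and dermal condensate genes were called higher in 14 of 37 cases (37.8%, against 6.89% of all genes) and lower in 3 (8.11%, against 5.30%). Edar, the Eda receptor that marks placodes, read 8.49, 8.43 and 8.85 in skin and 5.08 and 5.93 in bladder, a difference of 3.08 ± 0.25 (SE; adjusted p in limma 2.15e-08). Dkk4, a secreted Wnt antagonist made in placodes, read 7.64, 7.55 and 7.47 in skin and 4.54 and 4.00 in bladder, and the chemokine gene Cxcl14 read 10.19, 10.03 and 9.99 in skin and 6.09 and 5.33 in bladder. For each, every skin array was above both bladder arrays. Vdr (2.74), Dkk1 (2.65) and Wnt10a (2.42) were the next in size. The members called lower were Bambi (-2.04), a decoy receptor of Bmp signals, Bmp4 (-1.37) and Shh (-1.87).

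Shh, the hedgehog ligand of both the hair placode and the urothelium, read 7.62, 7.66 and 7.95 in skin and 9.80 and 9.44 in bladder, so it was detected in skin but lower there than in bladder. Its adjusted p in limma was 0.04, and the call was lost on leaving out any of the 5 arrays, with adjusted p between 0.0587 and 0.187. Of 18 measured hedgehog pathway genes, 2 were called higher (11.1%, against 6.89% of all genes) and 3 lower (16.7%, against 5.30%). Hhip, a hedgehog-binding antagonist that responds to the signal, read 6.80, 6.75 and 7.00 in skin and 8.29 and 8.78 in bladder, whereas the target and transducer genes Ptch1 (-0.35) and Gli1 (0.15) were not called. Scube2 (2.05) and Scube3 (-1.72), a secreted pair of which Scube2 helps release Shh, differed in opposite directions, and Disp1 (1.04), the transporter that exports the ligand, was higher, a call lost without bladder replicate 2 (adjusted p in limma 0.0506) and, by the fold limit, without skin replicate 3 (0.95).

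Wnt genes separated by ligand. Of 23 measured ligand and R-spondin genes, 4 were called higher (17.4%, against 6.89% of all genes) and 5 lower (21.7%, against 5.30%). Wnt3, an ectodermal ligand, read 8.02, 8.64 and 8.92 in skin and 4.13 and 4.00 in bladder, a difference of 4.46 ± 0.21 (SE; adjusted p in limma 3.97e-12), with both bladder arrays at the bottom of the scale. Wnt10a (2.42), Rspo1 (1.51) and Wnt7b (1.18) were also higher. Wnt5b (-1.68), Wnt1 (-1.32), Wnt2 (-1.28), Wnt3a (-1.02) and Rspo2 (-2.31) were lower. Wnt7b lost its call on leaving out any of the 5 arrays (adjusted p in limma 0.0568 to 0.193), Wnt2 came under the fold limit without bladder replicate 2 (-0.94), and Wnt3a without skin replicate 2 (-0.91) or 3 (-0.83). The second probe set of Rspo2 went the other way (0.18). Among 44 measured receptors, antagonists and targets, 14 were called higher (31.8%, against 6.89% of all genes) and 5 lower (11.4%, against 5.30%). The target gene Axin2 read 9.47, 9.35 and 9.57 in skin and 8.04 and 7.28 in bladder, and the secreted antagonist gene Sfrp5 read 8.34, 8.26 and 7.79 in skin and 4.64 and 4.39 in bladder. Fzd10, a receptor gene (2.77), and Sp5, a target gene (2.67), were higher, while the antagonist-like Dkk3 was lower (-2.17). Without bladder replicate 1 the 5 lower calls became 2, and with the mean of all probe sets 1.

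Of 58 measured BMP, TGF-beta and FGF genes, 6 were called higher (10.3%, against 6.89% of all genes) and 7 lower (12.1%, against 5.30%). The lower group held Bmper (-2.32), a Bmp-binding regulator, Bmp4 (-1.37) and Fgf9 (-1.48), the last lost without bladder replicate 1 (-1.11). Bmp7, an epithelial ligand, was higher at 8.39, 8.31 and 8.58 in skin and 7.35 and 6.33 in bladder, and so was Fgfr4 (1.57). Inhbb, which encodes an activin subunit, differed by 3.36 on its brightest probe set and by -0.18 on its second. Without bladder replicate 1 the lower calls fell from 7 to 3, with replicate 3 as the only skin array to 4, and with the mean of all probe sets the 6 higher calls became 2.

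Mesenchymal transcription factors and matrix genes were counted separately, beside shares of 6.89% higher and 5.30% lower over all genes. Of 32 genes of the dermal fibroblast lineage, 9 were called higher (28.1%) and 1 lower. Zic1 read 10.82, 10.84 and 10.94 in skin and 5.02 and 5.05 in bladder, a difference of 5.84 ± 0.32 (SE; adjusted p in limma 6.06e-11), and Tbx15, a T-box gene of dorsal dermis, read 9.95, 9.91 and 9.81 in skin and 4.64 and 5.68 in bladder. Dpt, which encodes the matrix protein dermatopontin, read 11.44, 11.44 and 11.47 in skin and 6.30 and 7.07 in bladder, and Crabp1, a retinoic acid-binding protein of embryonic dermis, read 11.60, 11.50 and 11.39 in skin and 7.93 and 7.12 in bladder. As in 99.7% of all called genes, the arrays of these genes did not overlap between tissues. Twist2, a dermal regulator, read 11.98, 11.90 and 12.02 in skin and 10.01 and 9.99 in bladder, and so was well detected in both. The member called lower was Col14a1 (-1.08). Among 40 fibrillar collagen and matrix genes, in contrast, 5 were called lower in limma (12.5%) and 0 higher, with 3 higher at an unadjusted p under 0.05, and the median was -0.28. Mfap4, a microfibril-associated gene, was the largest (-1.64), followed by the elastic fibre gene Fbln5 (-1.36), and Col1a1 (-0.41) and Col3a1 (-0.38) were not called. The 5 lower calls became 3 without bladder replicate 1 or skin replicate 3, at a pseudocount of 1 or with the mean of all probe sets, and 2 without bladder replicate 2, Fbln5 being lost in the last case (adjusted p in limma 0.0602). Col14a1 lost its call without either bladder array (0.0573 and 0.0641).

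Of 45 mesodermal and urogenital transcription factors, 19 were called lower (42.2%, against 5.30% of all genes) and 7 higher (15.6%, against 6.89%). Foxf1, a hedgehog-responsive factor of visceral mesenchyme, read 6.91, 7.13 and 6.12 in skin and 11.29 and 11.06 in bladder, a difference of -4.45 ± 0.34 (SE; adjusted p in limma 7.92e-09). Tcf21 read 6.04, 5.69 and 4.43 in skin and 9.73 and 9.26 in bladder, Gata5 4.43, 4.75 and 4.15 in skin and 8.16 and 8.34 in bladder, and Wt1, expressed in mesothelium and urogenital mesenchyme, 6.37, 6.44 and 6.59 in skin and 10.18 and 9.52 in bladder. The bladder arrays were higher than every skin array for all 4. Tbx4 (-3.40) and Tbx5 (-3.14) were lower on their brightest probe sets, but their second probe sets gave 0.45 and 0.39. Of the 7 members called higher, 5 were Iroquois genes, patterning factors that lie in clusters: Irx1 read 9.82, 9.99 and 9.95 in skin and 5.75 and 5.19 in bladder, Irx4 8.29, 8.17 and 8.42 in skin and 4.16 and 4.16 in bladder, and Irx2 8.83, 8.78 and 9.09 in skin and 6.04 and 4.94 in bladder.

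Smooth muscle had the largest share of members called lower in skin among the 30 lists. Of 34 measured, 24 were called lower (70.6%, against 5.30% of all genes) and 0 higher in limma, also at an unadjusted p under 0.05, and the median was -1.68. Myocd read 7.45, 7.32 and 6.68 in skin and 12.10 and 12.30 in bladder, a difference of -5.05 ± 0.59 (SE; adjusted p in limma 2.48e-06). The smooth muscle myosin gene Myh11 read 6.97, 6.77 and 5.24 in skin and 10.59 and 11.16 in bladder, the enteric actin gene Actg2 8.53, 8.53 and 5.67 in skin and 11.59 and 11.99 in bladder, and calponin (Cnn1) 6.76, 7.01 and 4.07 in skin and 9.41 and 10.16 in bladder. In these genes skin replicate 3 was lower than replicates 1 and 2. Acta2, the vascular-type smooth muscle actin, read 9.83, 9.77 and 9.30 in skin and 12.74 and 12.93 in bladder, a difference of -3.20 ± 0.16 (adjusted p in limma 2.35e-11). The myosin light chain gene Myl9 read 7.12, 7.01 and 6.64 in skin and 10.58 and 10.96 in bladder, and Tagln, an actin-binding protein, 7.70, 7.50 and 6.46 in skin and 10.78 and 11.29 in bladder. Not every member differed: Des, the intermediate filament gene of all muscle, read 6.60, 6.62 and 7.00 in skin and 6.69 and 7.57 in bladder, and the serum response factor gene itself, Srf, read 7.88, 7.82 and 8.02 in skin and 8.09 and 8.73 in bladder.

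Because Myocd was among the largest differences, the 250 bases before gene starts in RefSeq (GRCm38.p6) were searched for the CArG box, a pattern of 10 bases that reads alike on both strands. It was present in 3 of 28 measured smooth muscle genes with a promoter entry (10.7%), in 3 of 28 skeletal muscle genes (10.7%), in 0 of 18 stratified epithelium genes, and in 439 of all 27025 genes (1.62%). Of the 19 smooth muscle genes called lower that had an entry, 1 held it, Myl9. The windows below show the boxes in capitals with up to 25 bases on each side, because they are the sequences shared by the muscle genes that were higher in bladder (Myl9), higher in skin (Actc1) and not called (Srf, Vcl, Acta1 and Myom1).
Myl9, chr2:156775278-156775337, plus strand: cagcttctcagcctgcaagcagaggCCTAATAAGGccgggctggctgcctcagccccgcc
Srf, chr17:46556190-46556269, minus strand: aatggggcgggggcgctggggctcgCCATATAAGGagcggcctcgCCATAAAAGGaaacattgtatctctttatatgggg
Vcl, chr14:20929148-20929205, plus strand: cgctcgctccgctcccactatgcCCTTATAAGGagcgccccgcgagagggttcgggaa
Actc1, chr2:114052888-114052947, minus strand: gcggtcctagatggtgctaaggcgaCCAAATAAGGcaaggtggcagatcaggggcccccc
Acta1, chr8:123894814-123894873, minus strand: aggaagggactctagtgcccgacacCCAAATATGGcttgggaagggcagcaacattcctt
Myom1, chr17:71019433-71019492, plus strand: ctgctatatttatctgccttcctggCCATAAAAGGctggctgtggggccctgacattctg
The box begins 161 bases before the start of Myl9, 47 before that of Actc1, 73 before that of Acta1, 99 before that of Myom1 and 227 before that of Vcl, and Srf has 2, at 82 and 62. Both Myl9 and Actc1 hold a box, and they differed in opposite directions: Myl9 by -3.85 and Actc1, the cardiac actin that embryonic skeletal muscle also expresses, by 1.62, reading 10.35, 10.29 and 11.02 in skin and 8.38 and 9.48 in bladder. Actc1 lost its call without bladder replicate 1 (1.07, adjusted p in limma 0.0742). A match describes letters and says nothing of whether a factor binds, and a window without one says only that these letters are not in it.

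Hox genes pattern the body axis in order of their number within each cluster. Of 33 measured, 10 were called higher in skin (30.3%, against 6.89% of all genes) and 7 lower (21.2%, against 5.30%). All 10 called higher have numbers from 1 to 8 and all 7 called lower have numbers from 9 to 13. The lower genes were Hoxd13, Hoxa10 (-2.94), Hoxd10 (-2.70), Hoxa11 (-2.43), Hoxd11 (-2.36), Hoxb13 (-1.49) and Hoxa9 (-1.40). Hoxd10 read 7.53, 7.74 and 7.63 in skin and 10.47 and 10.20 in bladder, and was thus detected in both. The higher genes were led by Hoxc5 at 7.71, 7.84 and 7.64 in skin and 4.45 and 4.13 in bladder and Hoxc4 at 10.82, 10.94 and 10.63 in skin and 8.04 and 7.39 in bladder, followed by Hoxb4 (2.28), Hoxc6 (2.21), Hoxb2 (1.67), Hoxd8 (1.30), Hoxb5 (1.25), Hoxa2 (1.19), Hoxd3 (1.07) and Hoxd1 (1.05). Without bladder replicate 2 Hoxc6, Hoxb5, Hoxd3 and Hoxd1 lost their calls (adjusted p in limma 0.187, 0.222, 0.219 and 0.31), Hoxd3 and Hoxd1 also without skin replicate 2 or 3, and Hoxa2 came under the fold limit without bladder replicate 1 (0.98). The division by number did not hold under every alternative. Hoxa13 (-0.29), Hoxd12 (0.02), Hoxc9 (0.98) and Hoxd9 (0.77) were not called. Hoxc9, however, was called higher with skin replicates 1 and 2 averaged (1.08), with replicate 3 as the only skin array (1.40) and without bladder replicate 1 (1.40) or skin replicate 1 (1.17), and Hoxd9 without bladder replicate 1 (1.01). Hoxc10 read 4.88, 4.50 and 6.84 in skin and 7.29 and 6.97 in bladder, with replicate 3 near bladder; without that array it was called lower (-2.44, adjusted p in limma 9.9e-05).

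**Figure D4:**
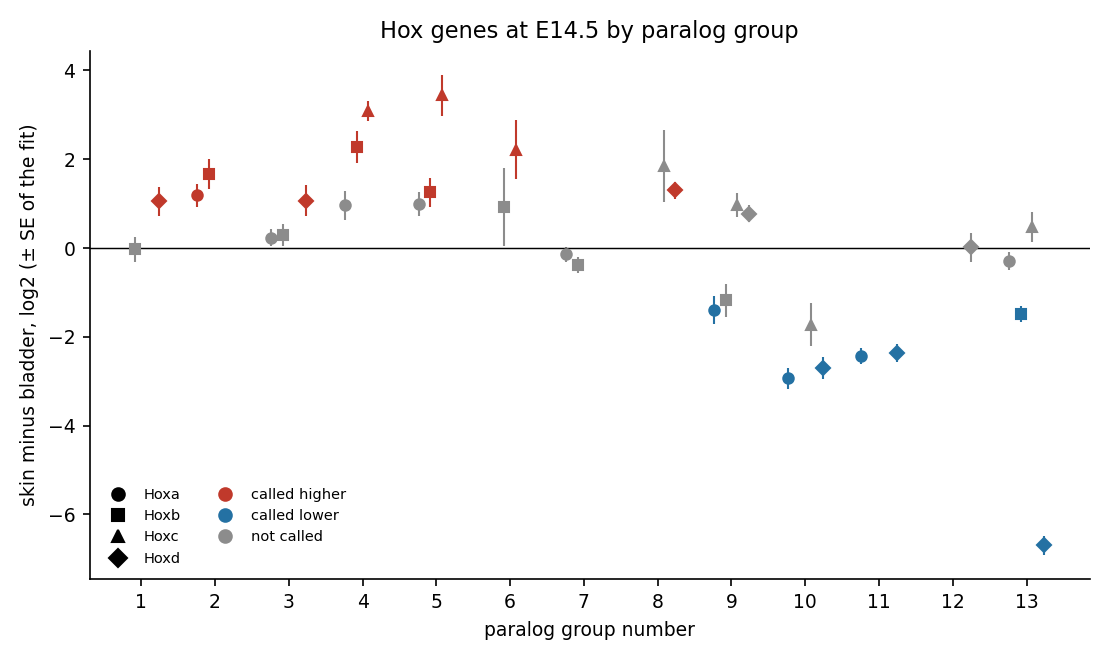
Skin minus bladder difference (log2, with the SE of the fit) of each measured Hox gene against its paralog group number, with marker shape for the cluster and colour for the call. Called genes up to group 8 are above 0 and those from group 9 on are below 0, with Hoxd13 at -6.70.

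Retinoic acid genes differed in both directions, with 5 of 21 called higher (23.8%, against 6.89% of all genes) and 6 lower (28.6%, against 5.30%). Aldh1a2, which makes retinoic acid, read 4.28, 5.72 and 4.73 in skin and 9.19 and 8.60 in bladder, a difference of -3.98 ± 0.31 (SE; adjusted p in limma 1.09e-08). Rdh10, which supplies its substrate, was lower (-1.85), and so were the receptor and target gene Rarb (-2.12), the degrading enzyme gene Cyp26a1 (-1.76) and the retinol uptake receptor gene Stra6 (-1.72), a call lost without bladder replicate 1 (-1.18). Another degrading enzyme gene, Cyp26b1, was higher (1.92), as were Crabp1 (3.97) and the retinol-binding protein gene Rbp2 (3.56). Rbp4, the plasma carrier of retinol made by liver, read 10.53, 10.54 and 6.20 in skin and 4.48 and 4.85 in bladder. Its skin excess was mostly in replicates 1 and 2, the arrays with liver-type transcripts, and with replicate 3 as the only skin array it was 1.53 (adjusted p in limma 0.146).

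Skin RNA also carried transcripts of cell types other than epidermis and fibroblasts. Of 38 measured skeletal muscle genes, 27 were called higher in skin (71.1%, against 6.89% of all genes) and 1 lower, with a median of 2.17. The myogenic regulator gene Myog read 9.59, 9.51 and 10.15 in skin and 6.26 and 5.86 in bladder, a difference of 3.69 ± 0.50 (SE; adjusted p in limma 1.26e-05). Mylpf, a fast myosin light chain, read 10.12, 9.98 and 10.83 in skin and 5.49 and 5.49 in bladder, and the embryonic myosin gene Myh3 9.54, 9.39 and 10.26 in skin and 5.11 and 5.11 in bladder. Replicate 3 was the highest skin array for all 3, and the list's summed intensity was 13.49, 13.42 and 14.20 (log2) in skin and 12.13 and 12.50 in bladder. Tnnt2, the troponin T of cardiac and embryonic muscle, was the member lower in skin (-1.64). The part of this muscle RNA in other differences was not tested.

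Mast cell proteases were high in skin and near the bottom of the scale in bladder. Of 29 macrophage and mast cell genes, 16 were called higher (55.2%, against 6.89% of all genes) and 27 had a positive difference. The median was 1.25 over the 3 skin arrays and 1.17 in replicate 3 alone. Cpa3, a mast cell protease, read 11.38, 11.42 and 11.50 in skin and 5.04 and 5.21 in bladder, a difference of 6.31 ± 0.41 (SE; adjusted p in limma 8.44e-10), and Cma1, the chymase gene, read 10.17, 10.14 and 10.09 in skin and 4.51 and 4.22 in bladder. Among the macrophage genes, F13a1 (1.89) was called higher, while C1qa (0.61), C1qb (0.84) and Adgre1 (-0.03) were not called. Lgals3, expressed by macrophages and by epithelia, differed by 4.21, and the pan-leukocyte gene Ptprc by 1.97.

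Genes of pigment cells, glia and neurons were counted next, beside shares of 6.89% higher and 5.30% lower over all genes. Of 15 melanocyte genes 8 were called higher (53.3%), among them Dct at 7.74, 7.50 and 8.17 in skin and 5.21 and 4.42 in bladder and Pmel (2.39), which serve pigment synthesis and melanosome structure. The other 7 were not called, Tyrp1 (-1.41) among them, and with the mean of all probe sets 4 were called. Of 13 Schwann cell and glial genes 5 were called higher (38.5%), Foxd3 (2.09) and Erbb3 among them. Erbb3 read 9.86, 9.70 and 9.73 in skin and 8.04 and 7.32 in bladder. Fewer were called without bladder replicate 2, and 2 with the mean of all probe sets. Of 30 neuronal genes 12 were called lower in limma (40.0%) and 0 higher, with 2 higher at an unadjusted p under 0.05. Stmn3, a neuronal tubulin regulator, read 6.29, 6.67 and 5.93 in skin and 11.11 and 9.08 in bladder, and the neurofilament gene Nefm 4.61, 4.57 and 4.64 in skin and 9.12 and 7.47 in bladder. The bladder arrays were unlike each other here, with summed intensities of 12.91 and 11.32 (log2) against 10.11 to 10.23 in skin, and without bladder replicate 1 the 12 lower calls became 6.

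Erythroid genes were called higher in 8 of 17 cases (47.1%), with Gata1, a regulator of red cell and mast cell genes, at 7.96, 7.80 and 7.65 in skin and 4.94 and 5.32 in bladder. Without bladder replicate 2, or with only the 5 arrays compared in the fit, the count was 5, and on the values as deposited it was 4. The median of the list was 1.13 over the 3 skin arrays and 0.77 in replicate 3 alone. Endothelial genes differed little: 2 of 30 were called higher (6.67%, against 6.89% of all genes). These were the lymphatic-enriched Flt4 (1.30) and Prox1 (1.03), while the pan-endothelial Pecam1 (0.28) and Cdh5 (-0.01) were not called. Prox1 came under the fold limit without bladder replicate 2 (0.82) or skin replicate 2 (0.96). Hepatocyte genes were called higher in 4 of 42 cases (9.52%, against 6.89% of all genes) with the condition on replicate 3. Without it 19 were called, beside 8.11% of all genes. Their median was 2.64 over the 3 skin arrays and -0.09 in replicate 3 alone, and 29 of the 42 differed by more than 2 log2 units between replicate 3 and the others. The 4 called were Rbp4 (4.42), Apoc1 (3.62), Vtn (2.78) and Serpinc1 (2.60), of which 1 call was left with replicate 3 as the only skin array.

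The remaining lists are given beside the shares over all genes, 6.89% higher and 5.30% lower. Adipocyte genes were called higher in 4 of 14 cases (28.6%) and lower in 1 (7.14%). The lower one was Car3 (-1.465), a call lost with replicate 3 as the only skin array. Fabp4 (0.85) and Lpl (0.89) were among those not called. The regulator gene Cebpa read 11.00, 10.98 and 11.07 in skin and 7.58 and 7.68 in bladder, and the triglyceride synthesis gene Dgat2 9.73, 9.67 and 9.62 in skin and 6.29 and 6.69 in bladder. Both were higher on every skin array. The 4 calls became 2 without bladder replicate 1 or with replicate 3 as the only skin array. Mesothelial genes were called higher in 2 of 15 cases (13.3%) and lower in 3 (20.0%, Aldh1a2, Wt1 and Cpe). Nephric and gonadal genes were called in 2 of 18 each way (11.1%). Among these were the transcription factor gene Sim1 at 2.37 and the receptor gene Ret at -3.23, though their second probe sets gave 0.05 and 0.02. The summed intensity of the nephric and gonadal list was 12.12, 12.16 and 10.28 (log2) in skin and 10.77 and 9.70 in bladder. Other counts were near the shares over all genes. Cartilage and bone genes were called in 2 of 22 cases each way (9.09%, Sox6 2.04, Hapln1 -1.52) and gut epithelium genes in 1 of 17 (5.88%, Clca1, lower). Imprinted growth genes were called in 1 of 17 (5.88%, Zim1, 1.14), a call lost without bladder replicate 1 (0.94) or skin replicate 3 (0.77). The gut epithelium list divided the skin arrays as the hepatocyte list did, with summed intensities of 10.91, 10.92 and 7.58 (log2) in skin and 8.90 and 9.12 in bladder, and 6 of its 17 genes were more than 2 log2 units apart between replicate 3 and the others. Of 41 cell cycle genes limma called 0, with 3 higher and 12 lower at an unadjusted p under 0.05, and the member with the largest difference was Ccnd2 (0.96), just under the fold limit, which it passed without bladder replicate 1 (1.30) or skin replicate 2 (1.02).

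**Figure D5:**
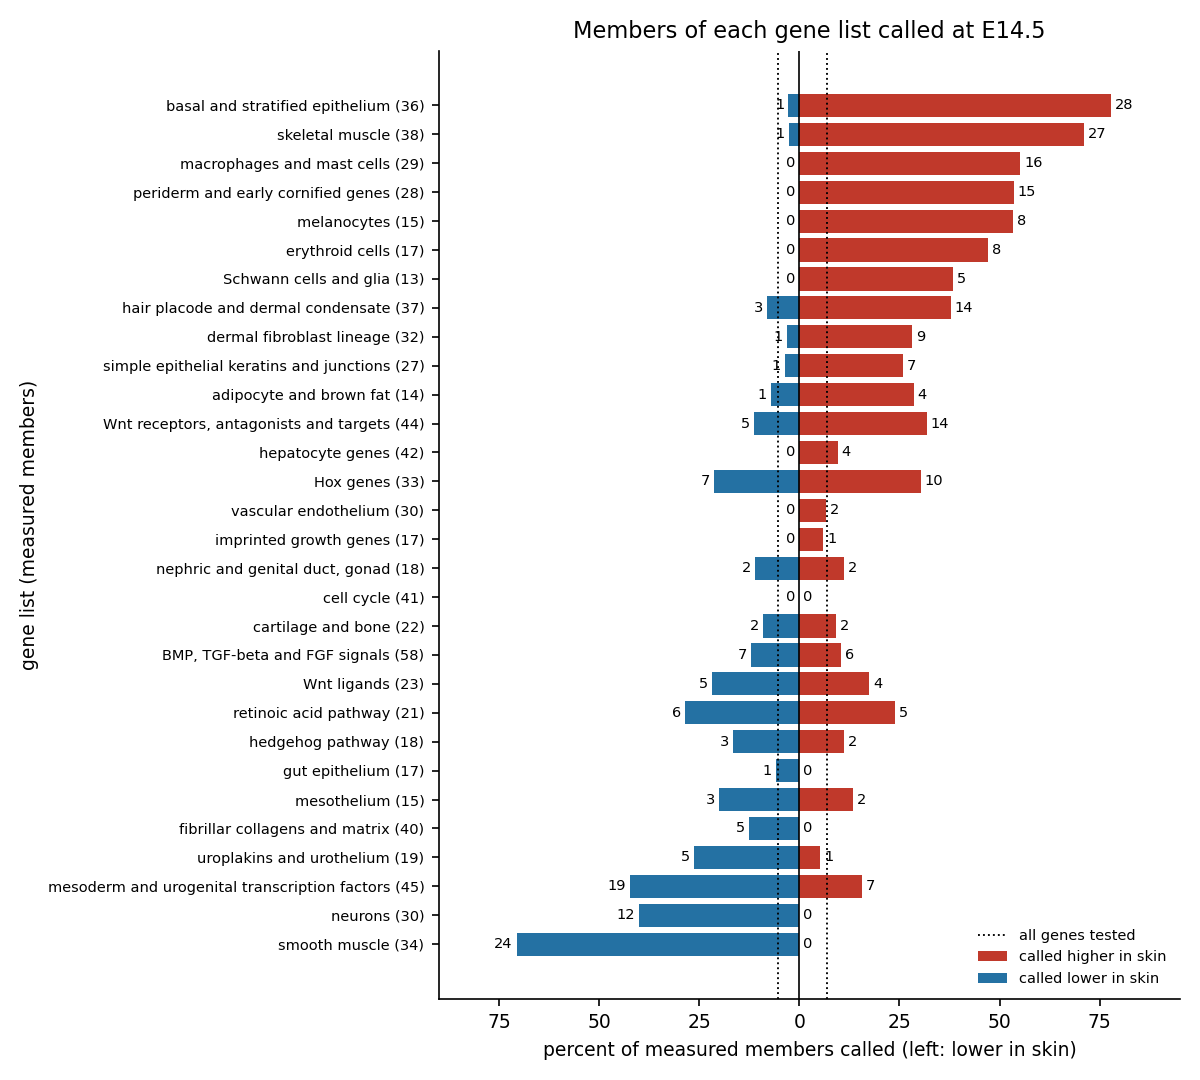
Percent of the measured members of each of 30 gene lists (number in brackets) called higher in skin (red, to the right) or lower (blue, to the left) at E14.5, with the number called at each bar and dotted lines at 6.89% and 5.30%, the shares over all genes tested. Basal and stratified epithelium and skeletal muscle reach furthest to the right and smooth muscle furthest to the left.

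At E16.5 the same contrast, on other embryos' arrays, called 3992 genes higher (21.9%) and 4912 lower (27.0%). Of the 1254 genes higher at E14.5, 752 were again higher (60.0%, and 18.8% of the E16.5 calls) and 61 were lower. Of the 964 lower genes, 803 were again lower (83.3%, and 16.3% of the E16.5 calls) and 15 were higher. The E16.5 skin arrays stood apart: they correlated with the E16.5 bladder arrays at 0.653 to 0.676 over all genes and with the E14.5 skin arrays at 0.731 to 0.772, against 0.893 to 0.911 between skin and bladder at E14.5. The skin and small intestine arrays of E18.5 were nearer to them (0.766 to 0.959). Bladder arrays of E14.5 and E16.5 correlated at 0.975 to 0.978, and E14.5 skin with E18.5 stomach and esophagus at 0.895 to 0.924. What sets the E16.5 skin arrays apart was not tested, and age and array cannot be told apart here.

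The change of the skin minus bladder difference between the ages passed the test for 3077 genes upward (16.9%) and 4593 downward (25.2%). Krt1 (7.62 at E16.5), Krt10 (6.92) and Krt14 (6.76) were also high over bladder at the later age, with changes of 0.71 ± 1.65, 1.45 ± 1.36 and 1.48 ± 1.20 (SE) that did not pass the test (adjusted p in limma 0.748, 0.395 and 0.322). The change of Krt5 was 1.83 ± 1.90 (0.444). Krt77 did change, by 3.41 ± 0.31 (SE; adjusted p in limma 1.03e-08), to a difference of 9.28 at E16.5. Among the 15 largest excesses at E14.5, Zic1 (-2.28, 0.000148) and Sdr16c6 (-2.41, 0.00499) changed downward. Apart from these and Krt77, none of the 15 passed. With only the 4 compared groups in the fit, and so without the spread of the other tissues, the changes of Krt10 (adjusted p in limma 0.0017) and Krt5 (0.0283) passed. Hoxd13 differed by -6.23 at E16.5. Actg2 moved further below bladder, by -2.40 ± 0.68 (adjusted p in limma 0.00562), and Foxf1 by -1.44 ± 0.45 (0.0109), a change under the fold limit with the mean of all probe sets (-0.74). Cnn1 (-2.61, 0.00525) and Myocd (-2.18, 0.0269) also moved further below. Other smooth muscle genes moved toward bladder: Myl9 by 1.56 ± 0.50 (0.0119) and Acta2 by 0.81 (0.00415). Acta2 was under the fold limit but passed on the values as deposited (1.00, 0.00025). Grik1, among the 15 largest deficits at E14.5, changed by 5.05 (0.00723) and was not called at E16.5 (0.74). The change of Myh11 was -1.21 ± 0.51 (0.0507), at the edge of the threshold. It passed in 6 of the alternatives, among them without skin replicate 3 (-1.76, adjusted p in limma 0.000765), without bladder replicate 2 (-1.50, 0.043) and with the mean of all probe sets (0.00625). Upk1b, which overlapped between the organs at E14.5, averaged 6.14 in skin (SD 0.20, n = 3) and 10.89 in bladder (SD 0.20, n = 3) at E16.5. Its difference changed by -5.08 ± 0.46 (SE; adjusted p in limma 1.12e-08). Upk3a changed by -1.17 ± 0.29 (0.00177), with a skin mean of 4.58 and a bladder mean of 7.80 at E16.5, and came under the fold limit without bladder replicate 2 (-0.97) and close to 0 at a pseudocount of 1. The changes of Shh (0.82 ± 0.88, 0.461) and Upk2 (0.00 ± 0.94, 0.999) did not pass. For Shh this rested on the brightest probe set: with the mean of all probe sets its difference at E16.5 went from -1.06 to 2.18 (adjusted p in limma 1.05e-05) and its change was 3.53 (1.12e-05).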

How the data were processed

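The deposited table of 3' Affymetrix arrays gives 1 linear intensity for each probe set and array. Per the submitters' processing notes, the authors obtained them in Affymetrix Expression Console 1.1.1 by the PLIER 2.0 method; how arrays were normalized to each other is not stated in those notes. The table holds 45101 probe sets: 34958 had 1 gene in the platform annotation, 932 several and 9211 none, and 99.83% of those with 1 gene had a symbol in the RefSeq table of GRCm38.p6. Intensities ran from 0 to 134761.86; the number of arrays, not depth, limits the precision.

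From these, log2(intensity + 16) was taken, quantile-normalized over the 26 arrays of 9 groups, and fitted with limma 3.58.1 (lmFit and eBayes, two-sided) in R 4.3.3, group means without a block, with Benjamini-Hochberg adjustment over 18194 genes. The brightest probe set stood for each gene. The scripts were tested on simulated data. Members, the 30 gene lists and the tests were chosen with earlier results of these data known. Named genes are the 15 largest calls each way whose arrays do not overlap, the largest called members of each list, and members of the Hox, Wnt and uroplakin families; further list members (such as Dsc3, Axin2, Bmp4 and Rdh10) were named after their values were seen. Deposited values, the pseudocount, a filter on dim genes, the probe set rule, the spread, the fold limit, the treatment of skin replicates and leaving out each array were tried as alternatives. RefSeq promoters were searched for the CArG box in the 250 bases before each start. A second pattern, GCCNNNGGC, was searched in the same windows and was present in 15.4% of all genes. In the lists searched it was present in 8.82% (hepatocyte) to 28.6% (smooth muscle) of measured genes. The Gene ST arrays of the series were not used here.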

Additional observations from a re-analysis of the deposited data

Results flagged for a closer look

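Results were singled out here where the skin minus bladder difference itself differed between E14.5 and E16.5 by an interaction contrast in limma. This held for 3077 genes upward and 4593 downward. Among the 12 genes set for this contrast, 4 passed at 2-fold: Upk1b fell by 5.08 on the log2 scale, Actg2 fell by 2.40, Foxf1 fell by 1.44 and Upk3a fell by 1.17. Acta2, another of the 12, rose by 0.81, under the fold limit. The change of Foxf1 lost its call with the mean of all probe sets (-0.74), and that of Upk3a without bladder replicate 2 (-0.97) and at a pseudocount of 1. Skin replicate 3 at E14.5 read 5.67 for Actg2, near the E16.5 skin mean of 5.98, while replicates 1 and 2 read 8.53. For Upk1b all 3 E14.5 skin arrays, from 10.11 to 10.47, lay above the E16.5 skin mean of 6.14. The E16.5 skin arrays correlated with the E14.5 skin arrays at only 0.731 to 0.772, and the part of that distance in these changes was not tested. No group compared has the 4 samples that a check for a single outlying sample needs.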

How the results depend on the processing

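Counts at E14.5 (1254 higher, 964 lower) stayed within 1.5 times under all alternatives but these: with only genes above the table median 624 were lower, and with no fold limit 2443 were higher and 2056 lower. With the mean of all probe sets in place of the brightest, 2915 genes changed downward between the ages. Leaving out each array in turn gave 1053 to 1513 higher and 909 to 1077 lower at E14.5, 3915 to 4004 higher and 4856 to 4922 lower at E16.5, and 2925 to 3115 upward and 4333 to 4596 downward changes. The 1513 and 1077 are from leaving out skin replicate 3, where the condition on that array was dropped. All 5 arrays without the condition gave 1476 and 1092. As deposited, 46.7% of E14.5 calls were higher (56.5% after quantile normalization). The change of Upk3a reversed to 0.040 at a pseudocount of 1 (adjusted p in limma 0.964), and with the mean of all probe sets the E16.5 difference of Shh reversed from -1.06 to 2.18 (1.05e-05). Of 192 called genes examined singly, 162 kept the call with the mean of all probe sets, 161 with skin replicate 3 as the only skin array, 163 without bladder replicate 2 and 173 without bladder replicate 1; above the table median 164 were left to test and 164 kept it. None of them changed direction at E14.5 under any alternative run. A further probe set existed for 1083 called genes and had the same sign in 850 of them (78.5%). No paired analysis was possible because the replicate numbers used here follow the order of the samples and pair nothing, and the identifiers in the titles of the groups compared share fewer than 2 numbers. Skin replicates 1 and 2 averaged as 1 sample gave 1241 higher and 982 lower calls, and leaving out genes over 2 log2 units apart between skin arrays, an alternative chosen after seeing the data, gave 1247 and 960. Spread over 3 against 2 arrays limits the precision of every difference.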
